A study of Mus musculus with 10 samples.

Results

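The NRF2 antioxidant response was followed in mouse liver as 10 genes of the 41388 genes in the count tables. They were listed by symbol as Nfe2l2, Keap1, Nqo1, Gclc, Gclm, Hmox1, Txnrd1, Srxn1, G6pdx and Pgd. All 10 passed the filter on low counts. The study asked how hepatocyte NAMPT, an enzyme that makes a precursor of NAD+, shapes hepatic gene expression in fasting. Bulk liver RNA-seq libraries of 3 groups were compared, all from C57B/6J mice of 12 wk. WT Refed mice (n = 2) had fasted for 22 h and were then refed for 2 h, WT Fasting mice (n = 3) had fasted for 24 h, and NAMPT LKO Fasting mice (n = 5) had also fasted for 24 h. WT mice were littermates that carry Nampt LoxP/LoxP without cre, and NAMPT LKO mice carry the same alleles with Albumin-cre, which drives deletion in hepatocytes and leaves Nampt intact in the other cells of the liver. These times are those of the labels, and the study's text gives a shorter fast and random-fed controls. No group of NAMPT LKO mice under refeeding was analysed here, so genotype was compared in fasting only.

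Nfe2l2 encodes NRF2, a transcription factor that is held in the cytoplasm and marked for degradation by KEAP1. Oxidants and electrophiles modify KEAP1, which lets NRF2 reach the nucleus, pair with small MAF proteins and bind antioxidant response elements. Its targets make glutathione, reduce thioredoxin and peroxiredoxins, detoxify quinones, degrade heme and supply NADPH, the electron donor that these reactions use. Because NRF2 is set largely through protein stability, the mRNA of Nfe2l2 need not follow NRF2 activity, and the mRNAs of the target genes are the usual transcript readout.

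None of the 10 genes differed between any 2 groups at an adjusted p at or under 0.05 (edgeR's quasi-likelihood test with Benjamini-Hochberg adjustment over 13444 genes). This 0 of 10 stands beside 7.04% of all tested genes called in WT Fasting vs. WT Refed livers, 0.00744% in NAMPT LKO vs. WT livers in fasting and 11.2% in NAMPT LKO Fasting vs. WT Refed livers. The largest differences were those of Hmox1, at a log2 fold change of -0.72 between fasted NAMPT LKO and WT livers, and of Hmox1 at 0.46 and Txnrd1 at -0.40 in the other two comparisons. Every other difference among the 30 tested lay within 0.4 of zero on the log2 scale. At an unadjusted p under 0.05, 0 of 10 genes passed in WT Fasting vs. WT Refed livers, where 22.3% of all genes did. Keap1 and Hmox1 passed that looser limit in NAMPT LKO vs. WT livers in fasting, both lower (background 6.03%, or 3.31% lower), and Keap1 and Txnrd1 did so in NAMPT LKO Fasting vs. WT Refed livers, both lower (background 26.1%, or 13.5% lower). The 2 comparisons with WT Refed livers share those 2 libraries, and the 2 with WT Fasting livers share the WT Fasting libraries. The 2 with NAMPT LKO livers, in which Keap1 was lower, share the NAMPT LKO libraries. In whole liver, fewer cells of a type and less RNA per cell cannot be told apart.

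**Figure D1:**
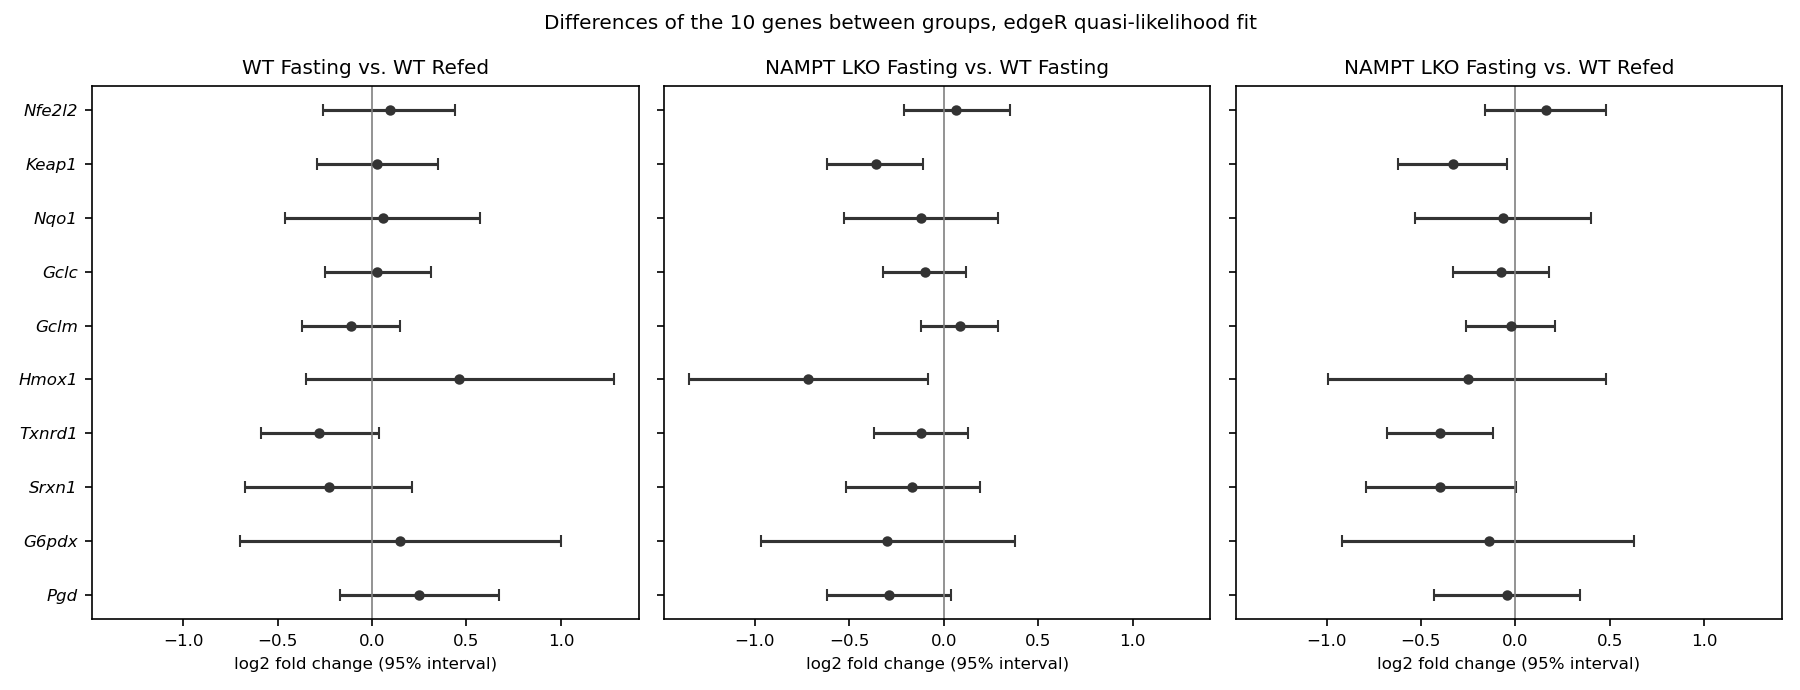
Log2 fold change of each NRF2 response gene (x axis) with its 95% interval in the 3 comparisons, 1 panel each, from the fit of all 10 libraries. Most intervals span 0; those of Keap1 and Hmox1 in the middle panel and of Keap1 and Txnrd1 in the right panel do not, and none of these genes passed after adjustment over all genes.

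Total counts lay between 30603080 and 43434139 per library, and the 10 genes were read at 77 to 15224 counts per library, so counting error was small for all but the lowest of them. Nampt, the targeted gene, was at 11.8 to 15.3 CPM (counts scaled to a common library total, here by TMM) in the 5 NAMPT LKO Fasting livers and at 63.0 to 141 CPM in the 5 WT livers, and the groups did not overlap. It was the only gene of 13444 called between fasted NAMPT LKO and WT livers (log2 fold change -2.81 with a standard error, SE, of 0.22; adjusted p = 0.00102). In that comparison 811 genes had an unadjusted p under 0.05, and DESeq2 called 24. A pair of libraries stood apart. NAMPT LKO Fasting replicate 5 had 21.1% of its counts on the mitochondrial genome, against 7.42% to 12.9% elsewhere, and its expression deviations followed GC content with a Spearman rho of -0.58 across genes. WT Fasting replicate 3 held the most of the macrophage markers (480 CPM summed over 8 genes, against 168 to 371 CPM in the others) and the highest Nampt value. Hepatocyte markers summed to 67752 to 114885 CPM over the 6 that were tested.

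Companion lists of PPARA target and lipogenic genes, which fasting is known to change, gave the scale of response in the same libraries. Of 11 tested PPARA target genes, 3 rose in WT Fasting vs. WT Refed livers and 7 in NAMPT LKO Fasting vs. WT Refed livers, where 2.68% and 4.65% of all genes rose. Their median log2 fold change was 0.67 and 0.78. Among 11 tested lipogenic genes, 1 fell in WT Fasting vs. WT Refed livers, where 4.36% of all genes fell. In NAMPT LKO Fasting vs. WT Refed livers 3 of them fell (background 6.58%). The median over the lipogenic genes was -0.24 and -0.28. Pdk4, which restrains glucose oxidation, rose by 3.00 on the log2 scale in WT Fasting vs. WT Refed livers (SE 0.51, adjusted p = 0.00715). Fits that left out either refed liver lost this call, with an adjusted p of 0.0847 and 0.0938. The median over the NRF2 response genes was 0.043 in that comparison, -0.14 in NAMPT LKO vs. WT livers in fasting and -0.11 in NAMPT LKO Fasting vs. WT Refed livers. Over all genes tested these medians were 0.037, 0.00025 and 0.032.

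**Figure D2:**
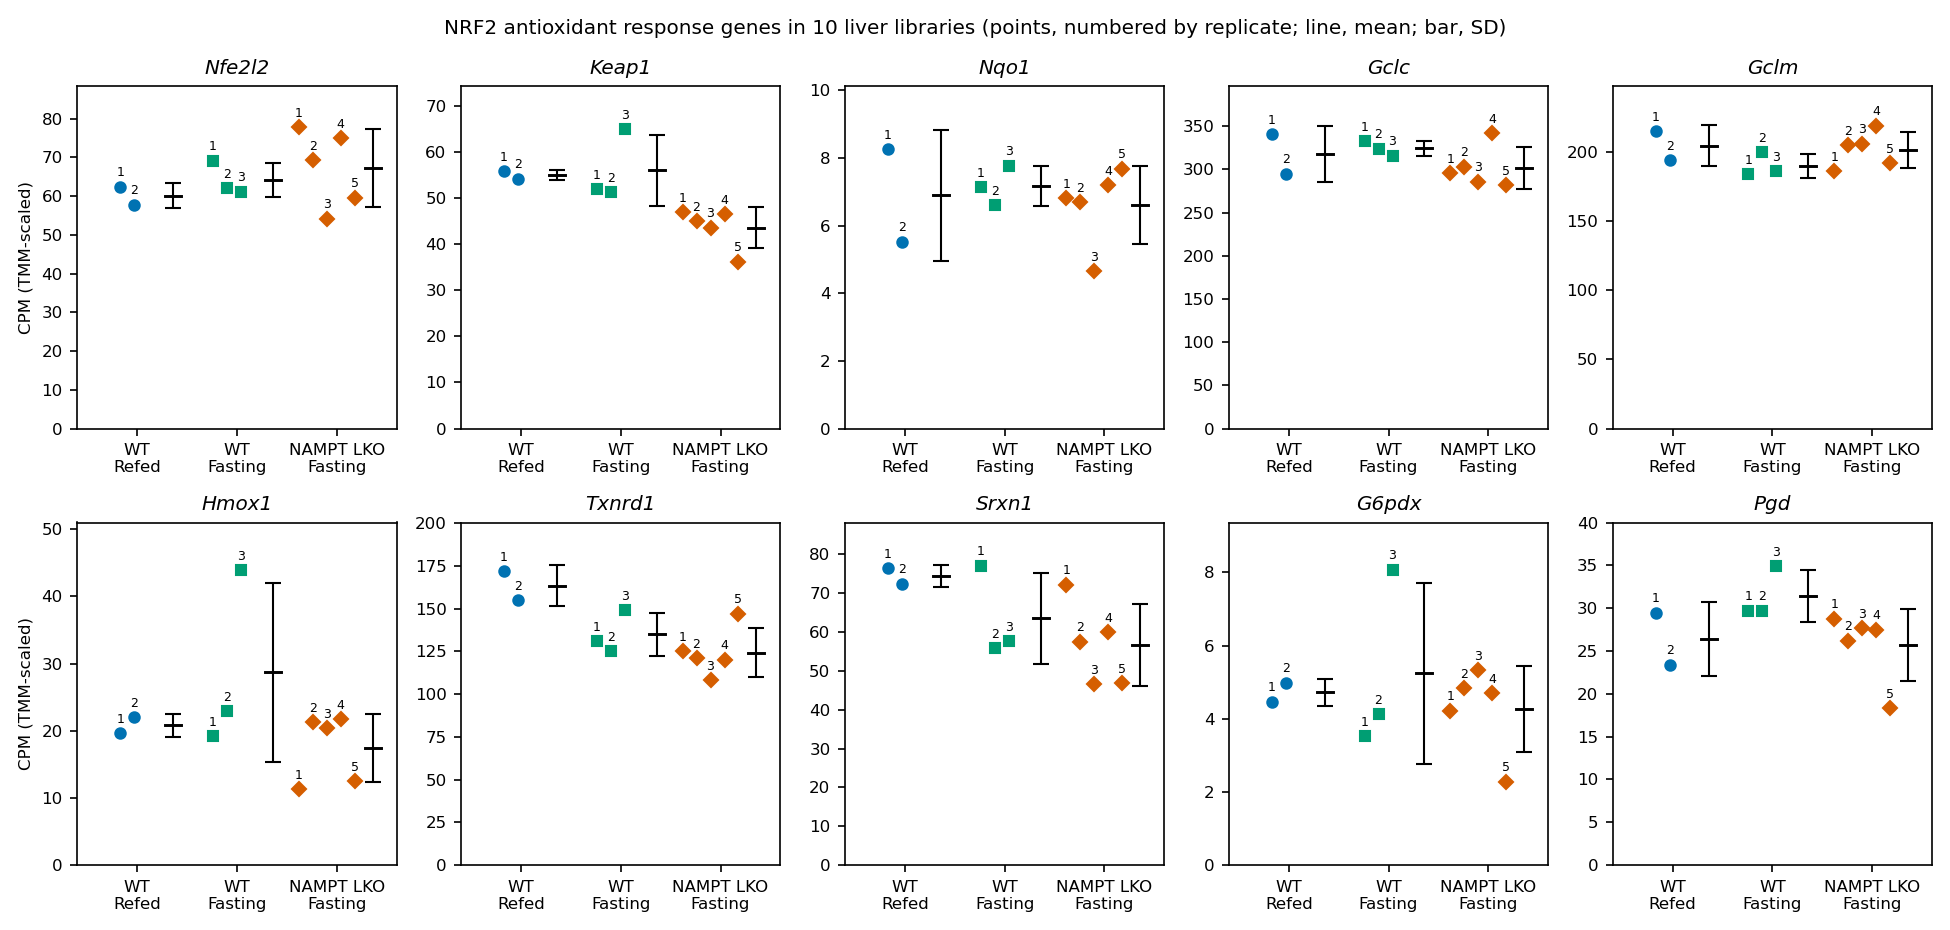
TMM-scaled CPM (y axis, from 0) of the 10 genes in each library, by group; points carry the replicate number, and the line and bar to their right give the mean and SD. Keap1 in all 5 NAMPT LKO Fasting livers lay below every WT liver, whereas Hmox1 and G6pdx were highest in WT Fasting replicate 3.

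Antioxidant response elements were looked for in the promoters, since they are the sites through which NRF2 acts on these genes. The RefSeq promoter windows of GRCm38.p6, from 250 bases before to 50 bases after a start site, matched 8 of the 10 genes in 11 windows. The core TGACNNNGC was searched on both strands. It was present in 6 of the 11 windows (54.5%), against 12.4% of all 32851 windows. By gene it was present in 6 of the 8 (75%), against 14% of all 27025 genes. In the wider lists of redox genes described further on it was present in 15 of 100 windows (15%) and in 18.4% of 76 genes. The members were listed as NRF2 response genes beforehand, and whether NRF2 binds at these matches was not tested. The matches are printed 5′ to 3′ on the strand of the match, each with 10 flanking bases on either side and the core in capitals:
Nfe2l2 (chr2:75704885-75704913, minus strand): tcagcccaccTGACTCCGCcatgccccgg
Gclm (chr3:122245413-122245441, minus strand): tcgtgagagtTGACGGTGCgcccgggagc
Txnrd1 (chr10:82859104-82859132, minus strand): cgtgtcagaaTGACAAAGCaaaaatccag
Srxn1 (chr2:152105542-152105570, minus strand): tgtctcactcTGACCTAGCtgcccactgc
G6pdx (chrX:74428919-74428947, plus strand): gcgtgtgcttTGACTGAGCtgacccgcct
Pgd (chr4:149166061-149166089, minus strand): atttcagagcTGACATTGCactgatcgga

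The match began at position -240 from the start site (taken as 0) in Nfe2l2, at -134 in Gclm, at -92 in Txnrd1, at -57 in G6pdx, at 3 in Pgd and at 28 in Srxn1, counted along the gene. Each start site is that of the window with the match. For Pgd this was window 2 (chr4:149166033-149166332), inside the annotated gene, and window 1, at the annotated start, held 0 matches. The G6pdx window (chrX:74428831-74429130) also lay wholly inside the annotated gene. For Txnrd1 the match was in window 2, and windows 1 and 3 held 0. None of the matches to the core overlapped a match to the AP-1 motif TGANTCA, which 1 member window (9.09%) and 7.81% of all windows held. The E-box CACGTG was in 0 of the 11 windows and in 7.15% of all windows. The windows of Keap1 and Nqo1 held none of these letters for the core, which says nothing of elements further away. The genes with a match in these windows included Txnrd1, the member nearest to a call, and Gclm, 1 of those with the smallest differences.

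The regulators came first. Nfe2l2 (ENSMUSG00000015839, chr2:75675513-75704641, minus strand of GRCm38) was at 62.5 and 57.8 CPM in WT Refed livers, at 69.2, 62.1 and 61.2 CPM in WT Fasting livers and at 77.8, 69.3, 54.2, 75.0 and 59.6 CPM in NAMPT LKO Fasting livers. The 3 groups overlapped, and the NAMPT LKO group held both the highest and the lowest library. The difference between fasted NAMPT LKO and WT livers was 0.066 on the log2 scale, with a 95% interval from -0.21 to 0.35 and an adjusted p of 0.931 (edgeR). Between WT Fasting and WT Refed livers it was 0.094 (interval -0.26 to 0.44, adjusted p = 0.78).

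Keap1 (ENSMUSG00000003308, chr9:21229730-21239332, minus strand), which encodes the substrate adaptor that sends NRF2 for degradation, had the lowest p of the 10 genes between the genotypes. It was at 55.9 and 54.3 CPM in WT Refed livers, at 52.0, 51.3 and 65.0 CPM in WT Fasting livers and at 47.0, 45.0, 43.6, 46.5 and 36.2 CPM in NAMPT LKO Fasting livers. Each of the 5 NAMPT LKO livers was below each of the 5 WT livers, while both WT groups overlapped. The log2 fold change between fasted NAMPT LKO and WT livers was -0.36 (SE 0.12, interval -0.62 to -0.11), with an unadjusted p of 0.00945 and an adjusted p of 0.788. Against WT Refed livers it was -0.33 (SE 0.13, adjusted p = 0.131). It passed in this second comparison under limma's voomWithQualityWeights (-0.29, adjusted p = 0.0149), and also where NAMPT LKO Fasting replicate 5 and WT Fasting replicate 3 were both left out (-0.27, adjusted p = 0.0212), a setting chosen after the data were seen. Without those libraries the difference from WT Fasting livers was -0.18 (adjusted p = 0.797). Exons of Keap1 share 510 bases with Gm16754 on the opposite strand, and whether counting used strand is not given in the sources used here, so its values carry that uncertainty.

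Counted over the 10 genes, groups without overlap were 2 in NAMPT LKO vs. WT livers in fasting (Keap1 and Pgd, both lower), where 3.99% of all genes had none and 2.12% lay wholly lower. They were 2 in WT Fasting vs. WT Refed livers (Txnrd1 lower, Pgd higher; background 49.7%, with 25.1% lower and 24.5% higher) and 3 in NAMPT LKO Fasting vs. WT Refed livers (Keap1, Txnrd1 and Srxn1, all lower; background 33.5%, with 17.8% lower).

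Glutathione synthesis begins with glutamate-cysteine ligase, whose catalytic subunit is Gclc and whose modifier subunit is Gclm. Both were abundant and steady. Gclc (ENSMUSG00000032350, chr9:77754535-77794485, plus strand) was at 341 and 295 CPM in WT Refed livers, at 333, 324 and 316 CPM in WT Fasting livers and at 296, 303, 286, 342 and 282 CPM in NAMPT LKO Fasting livers. The highest library was 1.21 times the lowest, and the groups overlapped. The log2 fold change was 0.029 in WT Fasting vs. WT Refed livers (interval -0.25 to 0.31) and -0.10 in NAMPT LKO vs. WT livers in fasting (interval -0.32 to 0.12).

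Gclm (ENSMUSG00000028124, chr3:122245557-122269984, plus strand) was at 215 and 194 CPM in WT Refed livers, at 184, 200 and 186 CPM in WT Fasting livers and at 186, 205, 206, 219 and 192 CPM in NAMPT LKO Fasting livers. Its highest library was 1.19 times its lowest, the narrowest range of the 10 genes. On the log2 scale the difference was -0.11 between WT Fasting and WT Refed livers (interval -0.37 to 0.15) and 0.087 between fasted NAMPT LKO and WT livers (interval -0.12 to 0.29). Part of its exons overlaps Gm17494 on the opposite strand (296 bases) and Gm6061 on the same strand (244 bases), so a small share of its reads could have been left out of the unambiguous counts.

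In the thioredoxin arm, Txnrd1 had the lowest p of the 10 genes against refed liver. Txnrd1 (ENSMUSG00000020250, chr10:82859206-82897724, plus strand), the cytosolic thioredoxin reductase, was at 172 and 155 CPM in WT Refed livers, at 131, 125 and 149 CPM in WT Fasting livers and at 125, 121, 108, 120 and 147 CPM in NAMPT LKO Fasting livers. Both refed livers were above all 8 fasted livers, and the 2 fasting groups overlapped. The log2 fold change was -0.28 in WT Fasting vs. WT Refed livers (SE 0.14, interval -0.59 to 0.035, adjusted p = 0.278). In NAMPT LKO Fasting vs. WT Refed livers it was -0.40 (SE 0.13, interval -0.68 to -0.12, adjusted p = 0.0716), and between the genotypes in fasting it was -0.12 (interval -0.37 to 0.13, adjusted p = 0.86).

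Whether Txnrd1 passed against refed liver turned on NAMPT LKO Fasting replicate 5, its highest NAMPT LKO library, and on the method. Without that replicate the log2 fold change between NAMPT LKO Fasting and WT Refed livers was -0.46 (adjusted p = 0.00967), with 21.2% of all genes called. With all libraries, it was -0.41 under DESeq2 (adjusted p = 0.0311), -0.45 under voomWithQualityWeights (adjusted p = 0.0015), -0.50 with scaling by library size alone (adjusted p = 0.0214) and -0.41 once each library's trend with GC content was removed (adjusted p = 0.0461). The same gene passed in WT Fasting vs. WT Refed livers under voomWithQualityWeights (-0.33, adjusted p = 0.0208) and without both libraries that stood apart (-0.36, adjusted p = 0.0423). In these settings 10.6% to 31.8% of all genes were called in the comparisons where Txnrd1 was. The sign of Txnrd1 was the same in every alternative that was run.

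Srxn1 (ENSMUSG00000032802, chr2:152105516-152111376, plus strand), which encodes sulfiredoxin and restores overoxidized peroxiredoxins, was at 76.4 and 72.5 CPM in WT Refed livers. It was at 77.1, 55.9 and 57.7 CPM in WT Fasting livers and at 72.2, 57.5, 46.6, 60.0 and 46.9 CPM in NAMPT LKO Fasting livers. Replicate 1 was the highest library in both fasting groups, and only the NAMPT LKO group lay wholly below the refed livers. The log2 fold change was -0.23 in WT Fasting vs. WT Refed livers (adjusted p = 0.547), -0.40 in NAMPT LKO Fasting vs. WT Refed livers (interval -0.79 to 0.003, adjusted p = 0.195) and -0.17 between the genotypes (interval -0.52 to 0.19, adjusted p = 0.86).

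Nqo1 (ENSMUSG00000003849, chr8:107388225-107403206, minus strand), a quinone reductase that is among the most used readouts of NRF2, was low in every library. It was at 8.27 and 5.53 CPM in WT Refed livers, at 7.14, 6.60 and 7.77 CPM in WT Fasting livers and at 6.81, 6.70, 4.65, 7.19 and 7.69 CPM in NAMPT LKO Fasting livers. The 2 refed livers spanned all but 1 of the other libraries. Between fasted NAMPT LKO and WT livers Nqo1 had a log2 fold change of -0.12 (edgeR, interval -0.53 to 0.29, adjusted p = 0.911). The libraries thus left room for a change within these bounds. The interval is not adjusted over all genes, so it does not mark the smallest change of Nqo1 that would have been called.

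Hmox1 (ENSMUSG00000005413, chr8:75093591-75100596, plus strand) encodes heme oxygenase 1, which degrades heme and which resident macrophages of the liver use when they clear red blood cells. It was at 19.6 and 22.0 CPM in WT Refed livers, at 19.2, 22.9 and 43.9 CPM in WT Fasting livers and at 11.3, 21.3, 20.4, 21.7 and 12.5 CPM in NAMPT LKO Fasting livers. WT Fasting replicate 3 alone stood above 23 CPM, and NAMPT LKO Fasting replicates 1 and 5 alone stood below 19 CPM. Hmox1 differed by -0.72 on the log2 scale between fasted NAMPT LKO and WT livers (SE 0.29, interval -1.35 to -0.083, adjusted p = 0.827), and it was -0.27 without WT Fasting replicate 3.

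The same library held the highest summed level of the Kupffer cell and macrophage markers. All 8 markers of that list were measured and none was at 0. Their sum was 231 and 186 CPM in WT Refed livers, 243, 241 and 480 CPM in WT Fasting livers and 168, 293, 371, 291 and 236 CPM in NAMPT LKO Fasting livers. The library with the least of these markers, NAMPT LKO Fasting replicate 1, also had the lowest Hmox1, whereas NAMPT LKO Fasting replicate 3, second in the markers, had 20.4 CPM of Hmox1. In WT Fasting vs. WT Refed livers, where the log2 fold change of Hmox1 was 0.46 (adjusted p = 0.503), it was 0.0085 without WT Fasting replicate 3. The part of these cells in the Hmox1 values was not tested.

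**Figure D3:**
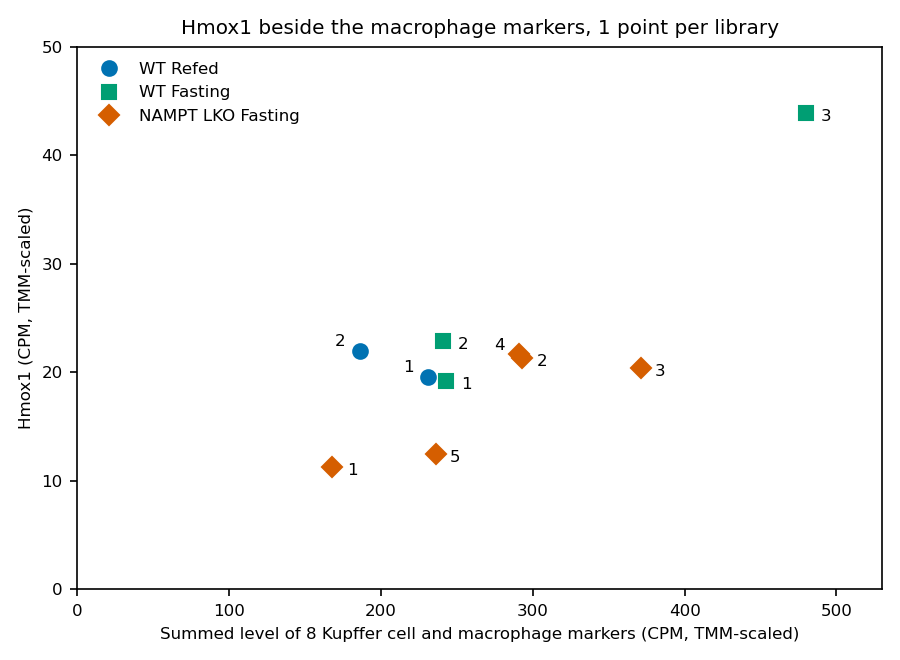
Hmox1 (y axis, TMM-scaled CPM) against the summed level of 8 Kupffer cell and macrophage markers (x axis, TMM-scaled CPM), 1 point per library with its replicate number. WT Fasting replicate 3 lies apart at 480 CPM of markers and 43.9 CPM of Hmox1, and the other 9 libraries lie between 11.3 and 22.9 CPM.

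The pentose phosphate dehydrogenases, which reduce NADP+ to NADPH, were the remaining pair. G6pdx (ENSMUSG00000031400, chrX:74409483-74429194, minus strand), glucose-6-phosphate dehydrogenase, was at 4.46 and 4.98 CPM in WT Refed livers, at 3.52, 4.12 and 8.07 CPM in WT Fasting livers and at 4.22, 4.84, 5.32, 4.70 and 2.28 CPM in NAMPT LKO Fasting livers. The highest and the lowest were the 2 libraries that stood apart, and the rest lay between 3.52 and 5.32 CPM. Between fasted NAMPT LKO and WT livers G6pdx had a log2 fold change of -0.30 (interval -0.97 to 0.38, adjusted p = 0.866), and it turned to 0.16 without WT Fasting replicate 3. Of its 3080 exon bases, 418 are shared with Ikbkg on the opposite strand. If strand was not used, reads there could have been left out of the unambiguous counts, so the low G6pdx values carry that uncertainty.

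Pgd (ENSMUSG00000028961, chr4:149149991-149166771, minus strand), 6-phosphogluconate dehydrogenase, was at 29.5 and 23.4 CPM in WT Refed livers, at 29.7, 29.7 and 34.9 CPM in WT Fasting livers and at 28.8, 26.2, 27.7, 27.5 and 18.3 CPM in NAMPT LKO Fasting livers. The WT Fasting livers lay above all other libraries, by less than 1 CPM at the closest. Its log2 fold change between fasted NAMPT LKO and WT livers was -0.29 (SE 0.15, interval -0.62 to 0.039, adjusted p = 0.837), and between WT Fasting and WT Refed livers it was 0.25 (SE 0.19, interval -0.17 to 0.67, adjusted p = 0.484). Without both libraries that stood apart, these differences were -0.11 and 0.16.

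Per kilobase of exon, the order of the levels was almost the same in the 3 groups. In WT Fasting livers Gclc was highest at 94.8 CPM per kb, followed by Txnrd1 at 39.5, Gclm at 34.3, Srxn1 at 22.5 and Nfe2l2 at 16.9 CPM per kb. Hmox1 at 13.3 and Keap1 at 12.6 CPM per kb came next and overlapped between libraries, as did Pgd at 4.87 and Nqo1 at 4.62 CPM per kb, and G6pdx was lowest at 1.70 CPM per kb. The ranges of Nfe2l2 and Hmox1 also overlapped, through WT Fasting replicate 3. In NAMPT LKO Fasting livers Gclm and Txnrd1 overlapped, both at 36.4 CPM per kb. On average the genes of glutathione synthesis and thioredoxin reduction stood above the regulators, and quinone reduction and the NADPH-forming dehydrogenases stood below them, in refed and fasted livers of both genotypes.

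The rest of the pathway was described with 84 further genes in 7 lists by role, of which 82 passed the filter (Slc7a11 and Gpx2 did not). In WT Fasting vs. WT Refed livers 3 of the 82 rose and 0 fell, against 2.68% of all genes that rose and 4.36% that fell. In NAMPT LKO Fasting vs. WT Refed livers the number was again 3, all higher (backgrounds 4.65% and 6.58%). In NAMPT LKO vs. WT livers in fasting 0 of 82 were called, where Nampt alone was called over all genes. At an unadjusted p under 0.05, 6 of the 82 passed there (7.32%), near the 6.03% of all genes. DESeq2 called 0 of the 82 and 0.179% of all genes in that comparison. The median log2 fold change over the 82 genes was 0.063, -0.066 and -0.082 in the order given.

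**Figure D4:**
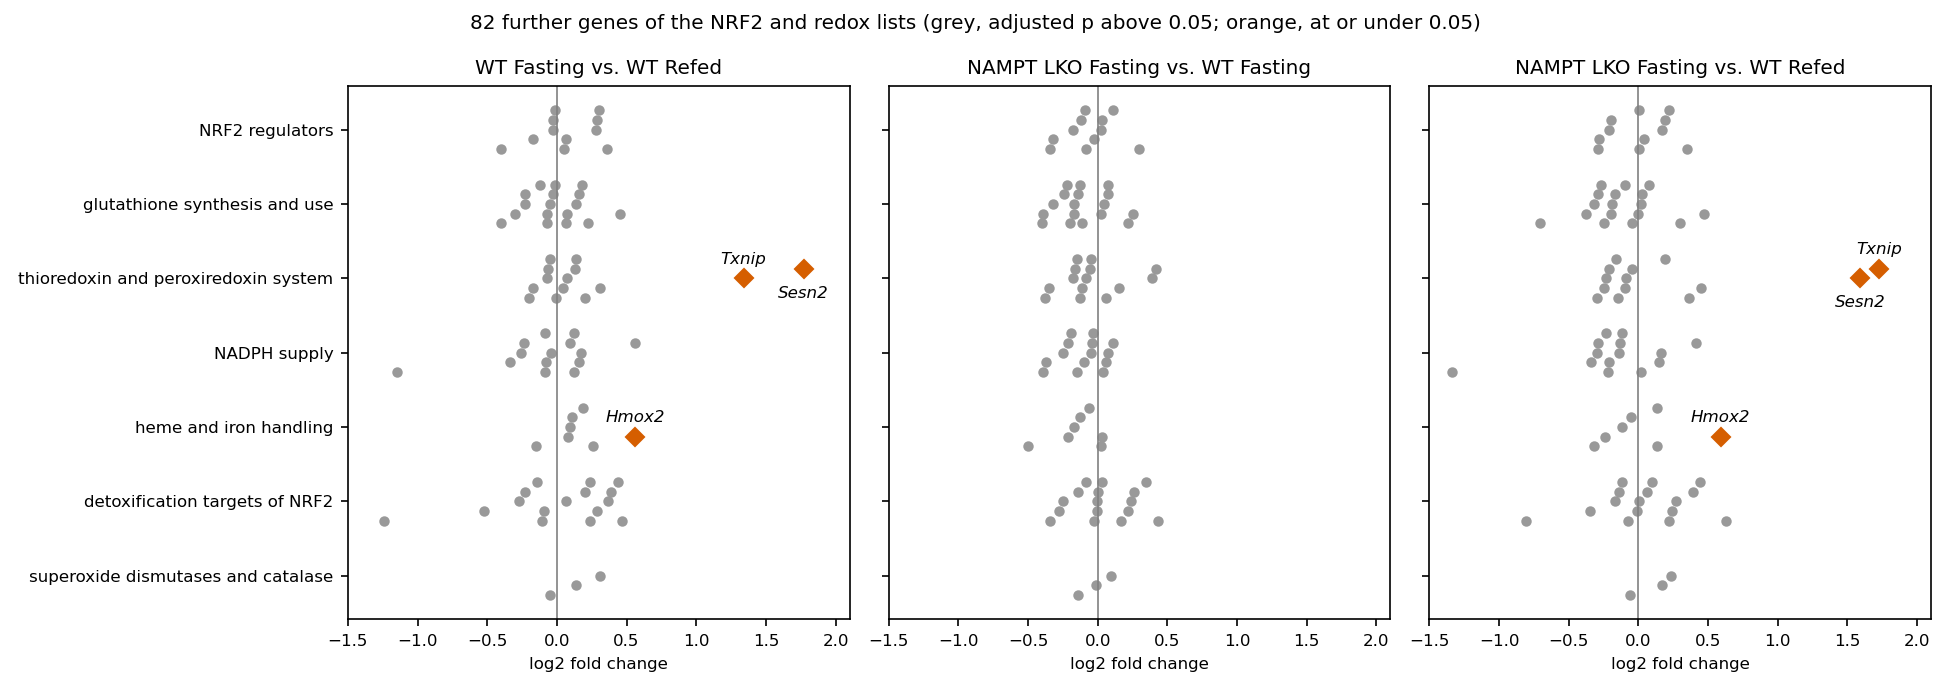
Log2 fold change (x axis) of the 82 further genes by role (rows) in the 3 comparisons; each point is a gene, and orange diamonds mark an adjusted p at or under 0.05. Only Txnip, Sesn2 and Hmox2 are marked, in both comparisons with refed livers, and no gene is marked in the middle panel.

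The called genes were Txnip, Sesn2 and Hmox2 in both comparisons with refed livers. Txnip encodes an inhibitor of thioredoxin that is also controlled by glucose, Sesn2 encodes sestrin 2, a stress-inducible regulator of nutrient signalling, and Hmox2 encodes the constitutive heme oxygenase. Txnip was at 35.0 and 40.5 CPM in WT Refed livers, at 133, 49.0 and 104 CPM in WT Fasting livers and at 127, 128, 137, 106 and 129 CPM in NAMPT LKO Fasting livers. It was higher in every fasted liver than in the refed ones, and WT Fasting replicate 2 was the lowest of the fasted livers. The log2 fold change was 1.34 in WT Fasting vs. WT Refed livers (SE 0.32, adjusted p = 0.0302) and 1.73 in NAMPT LKO Fasting vs. WT Refed livers (SE 0.31, adjusted p = 0.00576), and between the genotypes it was 0.39 (interval -0.15 to 0.94, adjusted p = 0.839).

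Sesn2 was at 6.39 and 5.44 CPM in WT Refed livers, at 26.3, 16.0 and 18.1 CPM in WT Fasting livers and at 20, 19.6, 22.9, 18.9 and 7.69 CPM in NAMPT LKO Fasting livers. Replicate 5 of the NAMPT LKO group was near the refed level and the other 7 fasted livers were well above it. Its log2 fold change was 1.77 in WT Fasting vs. WT Refed livers (SE 0.39, adjusted p = 0.0225) and 1.59 in NAMPT LKO Fasting vs. WT Refed livers (SE 0.37, adjusted p = 0.0212). Hmox2 was at 22.2 and 24.1 CPM in WT Refed livers, at 31.2, 35.9 and 35.2 CPM in WT Fasting livers and at 32.9, 35.8, 36.5, 34.7 and 33.8 CPM in NAMPT LKO Fasting livers. Its 8 fasted values lay close together and above both refed values, with a log2 fold change of 0.56 (SE 0.11, adjusted p = 0.0139) in WT and 0.59 (SE 0.10, adjusted p = 0.00536) in NAMPT LKO livers against WT Refed livers.

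All 6 calls were lost when either refed liver was left out, with an adjusted p of 0.102 to 0.225 in WT Fasting vs. WT Refed livers and of 0.0677 to 0.221 in NAMPT LKO Fasting vs. WT Refed livers; their log2 fold changes stayed at 0.49 or above. Without WT Fasting replicate 1, Txnip (adjusted p = 0.0823) and Sesn2 (adjusted p = 0.0677) no longer passed in WT Fasting vs. WT Refed livers. Txnip was also lost there without WT Fasting replicate 3 (0.0637), without NAMPT LKO Fasting replicate 2 (0.0523) and in a fit of only these groups (0.0878). Hmox2 was lost there without WT Fasting replicate 2 (0.0541), with scaling by library size alone (0.0517) and with no filter (0.0537).

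**Figure D5:**
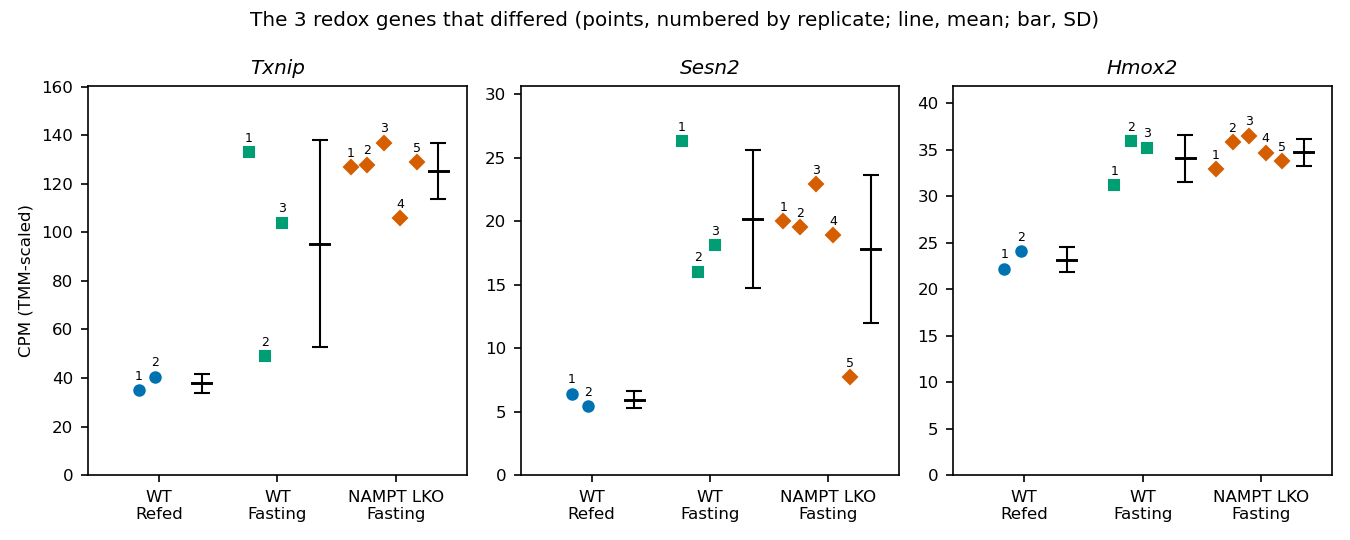
TMM-scaled CPM (y axis, from 0) of Txnip, Sesn2 and Hmox2 in each library, by group, with replicate numbers, mean and SD. Both WT Refed livers lie below all 8 fasted livers for each gene, and Sesn2 in NAMPT LKO Fasting replicate 5 lies at 7.69 CPM.

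The other genes with the lowest p in their list did not pass, and their values are given as such. Among regulators of NRF2, Rbx1, a subunit of the ligase that KEAP1 joins, had a log2 fold change of -0.40 (adjusted p = 0.115) in WT Fasting vs. WT Refed livers and of -0.29 (adjusted p = 0.18) in NAMPT LKO Fasting vs. WT Refed livers. Mafg, a small MAF partner of NRF2, was at -0.34 (adjusted p = 0.837) in NAMPT LKO vs. WT livers in fasting. The NAD-dependent folate enzyme Mthfd2 had the largest difference of the NADPH list, at -1.15 (adjusted p = 0.163) in WT Fasting vs. WT Refed livers and -1.34 (adjusted p = 0.0575) in NAMPT LKO Fasting vs. WT Refed livers, where 6 other fits called it. Rbx1 passed in both comparisons with refed livers with library size alone, with voomWithQualityWeights and without NAMPT LKO Fasting replicate 5.

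Among detoxification genes, Ugt1a6a, a glucuronosyltransferase, was at -0.52 (adjusted p = 0.0813) in WT Fasting vs. WT Refed livers and at 0.35 (adjusted p = 0.801) between the genotypes, and Aox1, aldehyde oxidase, was at -0.35 (adjusted p = 0.0713) in NAMPT LKO Fasting vs. WT Refed livers. Under DESeq2 each passed against refed livers, at an adjusted p of 0.0352 and 0.0294. In glutathione use, the lowest p belonged to Glrx at 0.45 (adjusted p = 0.247) for WT Fasting vs. WT Refed livers, to Gstm3 at -0.71 (adjusted p = 0.101) for NAMPT LKO Fasting vs. WT Refed livers, and to the glutathione reductase Gsr at -0.20 (adjusted p = 0.837) between the genotypes. The remaining lists gave, between the genotypes, -0.35 for the peroxiredoxin Prdx5 (adjusted p = 0.761), -0.37 for Aldh1l1 (0.827), -0.50 for the biliverdin reductase Blvrb (0.761) and -0.14 for Sod1 (0.865). Superoxide dismutase Sod1 was at 0.31 (adjusted p = 0.348) in WT Fasting vs. WT Refed livers, and catalase, Cat, was at 0.23 (adjusted p = 0.425) in NAMPT LKO Fasting vs. WT Refed livers.

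Leaving out NAMPT LKO Fasting replicate 5 and WT Fasting replicate 3 together gave 1 of the 10 NRF2 response genes called in WT Fasting vs. WT Refed livers (17.3% of all genes), 0 in NAMPT LKO vs. WT livers in fasting (0.00755%) and 2 in NAMPT LKO Fasting vs. WT Refed livers (25.1%). For the 82 further genes these counts were 9, 0 and 17. The comparison of the genotypes in fasting thus held 0 calls among the 92 genes under every alternative that was run, with at most 0.179% of all genes called there.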

How the data were processed

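Liver RNA-seq was taken from 10 libraries in 3 groups, as the labels give them. Per the labels and the study's methods, polyadenylated RNA was sequenced as single reads, aligned to GRCm38 with STAR (2.5.1a in the submitters' processing notes; the study's text names other versions) and counted per Ensembl gene with featureCounts 1.4.6-p5. The authors deposited, per gene, the count of uniquely aligned reads, the CPM (count scaled to the library total) and the RPKM (CPM per kilobase of exon). The deposited CPM and RPKM followed from the counts exactly and were not used further. Symbols came from GENCODE M21 (40340 of 41388 genes).

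The filter asked for more than 1 CPM in any library and took out rRNA genes, which left 13444. Counts were TMM-scaled and tested with the quasi-likelihood test of edgeR 4.0.16 in R 4.3.3, with 1 mean per group and all 10 libraries in one fit; an adjusted p at or under 0.05 was a call. Standard errors were the log2 fold change over the root of F, and intervals are at 95%. The study's methods name voomWithQualityWeights (limma 3.58.1) and its legends the exact test of edgeR; both, and DESeq2 1.42.0, were alternatives, beside other scalings, filters, thresholds, a GC correction, each library left out in turn and a block on the replicate number. Replicates are separate libraries of a group. The labels number the fasting libraries, and the WT Refed libraries, which the labels do not number, were numbered here. The study's text counts mice per group, with another number of WT Fasting mice than the 3 libraries here. None was identical to another or within its sampling noise.

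The members, lists and tests were chosen with earlier results of these data known. The text names all 10 genes, Nampt, called genes of the wider lists, the lowest-p gene of each list and a called gene of a companion list; 1 further gene is not reported here. Library totals ranged from 30603080 to 43434139.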

Additional observations from a re-analysis of the deposited data

Results flagged for a closer look

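In the 5 NAMPT LKO Fasting livers, Pgd in replicate 5 (18.3 CPM) lay apart from the other 4 livers (26.2 to 28.8 CPM), with a gap of 0.754 of the group's whole range, above Dixon's 95% critical value for 5 values. Among the 10 genes compared with that limit this was the 1 past it, and chance flags about 1 in 20. The same library had 21.1% of its counts on the mitochondrial genome, and the part of that in the Pgd value was not tested.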

How the results depend on the processing

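Counts of called NRF2 response genes stayed at 0 between the genotypes in fasting under all alternatives run, where at most 0.179% of all genes were called. Against WT Refed livers, 1 gene was called in NAMPT LKO Fasting livers with library size alone (10.6% of all genes), DESeq2 (16.7%), the GC trend removed (15.4%) or an adjusted p of up to 0.1 (17.1%), and 2 with voomWithQualityWeights (31.8%), which also called 1 in WT Fasting vs. WT Refed livers (24.8%). Leaving out single libraries gave 0 to 1. Leaving out NAMPT LKO Fasting replicate 5 and WT Fasting replicate 3 together, chosen after seeing the data, gave 1 (17.3% of all genes) and 2 (25.1%). For the 82 further genes in WT Fasting vs. WT Refed livers the counts were 14 (voomWithQualityWeights), 6 (only these groups, 12.6% of all genes), 9 (without both libraries) and 0 to 8 over single libraries (0.798% to 16.7%). In NAMPT LKO Fasting vs. WT Refed livers they were 5 (library size alone), 7 (DESeq2), 21 (voomWithQualityWeights), 17 (without both), 7 (adjusted p up to 0.1) and 0 to 13 over single libraries (1.69% to 21.2%). Among single libraries left out, the lowest counts came without either refed liver, where the lone sample is assumed to vary like the others, and the highest without NAMPT LKO Fasting replicate 5.

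Some log2 fold changes that had not passed changed sign. In WT Fasting vs. WT Refed livers Keap1 was -0.034 with library size alone, -0.044 with voomWithQualityWeights, -0.048 with the GC trend removed and -0.093 without both libraries. Nqo1 was -0.0066 and Gclc -0.035 with library size alone, Nqo1 was -0.0064 without both, and G6pdx was -0.10 with voomWithQualityWeights and -0.31 without both. G6pdx between the genotypes was 0.10 with voomWithQualityWeights and 0.32 without both. In NAMPT LKO Fasting vs. WT Refed livers Pgd was 0.035 with voomWithQualityWeights and 0.058 without both, and G6pdx was 0.017 without both. Nampt in WT Fasting vs. WT Refed livers was -0.097 without both and -0.11 to 0.55 over single libraries left out. Over single libraries left out, the WT Fasting vs. WT Refed values ran from -0.10 to 0.088 (Keap1), -0.21 to 0.36 (Nqo1), -0.08 to 0.13 (Gclc) and -0.32 to 0.36 (G6pdx). The NAMPT LKO Fasting vs. WT Refed values ran from -0.33 to 0.24 (Nqo1), -0.18 to 0.022 (Gclc), -0.10 to 0.044 (Gclm), -0.24 to 0.017 (G6pdx) and -0.21 to 0.12 (Pgd), and G6pdx between the genotypes ran from -0.52 to 0.16. The cause was not tested. Of the values of the 10 genes under alternatives, 227 of 230 between the genotypes, 192 of 210 in WT Fasting vs. WT Refed livers and 191 of 210 in NAMPT LKO Fasting vs. WT Refed livers kept their sign and side of the threshold.

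On a log2 scale the NAMPT LKO gap of Keap1 (0.711), Nqo1 (0.726) and G6pdx (0.726) also passed Dixon's critical value, as did Keap1 (0.829) and Nqo1 (0.732) with library size alone. Same-numbered fasted livers of both genotypes correlated at 0.104, 0.078 and 0.097 and are different mice; a fit of libraries 1 to 3 called 0 of 13231 genes with the replicate number as a block and 0 without it, Nampt included (log2 fold change -2.78, adjusted p = 0.106, with the block and -2.87, adjusted p = 0.269, without), so its 0 of 10 and 0 of 82 say nothing of the listed genes. Depth did not limit the abundant genes, but there were only 2 refed livers and 3 WT Fasting livers. The intervals above are not adjusted over all genes, so they do not mark the smallest difference that would have been called.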

Other observations

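Bile duct markers were higher in sum in every NAMPT LKO Fasting liver than in any WT liver. The summed level of Krt7, Krt19, Epcam, Sox9 and Spp1 was 50.6, 40.8, 34.0, 46.6 and 54.5 CPM in NAMPT LKO Fasting livers, 15.2, 22.3 and 20.2 CPM in WT Fasting livers and 22.4 and 20.1 CPM in WT Refed livers. Of the 5 genes, 4 had an unadjusted p under 0.05 between the genotypes, all higher in NAMPT LKO livers, and 0 were called, where 6.03% and 0.00744% of all genes did so. Spp1, which encodes osteopontin, had a log2 fold change of 1.64 there (SE 0.22, adjusted p = 0.0603). In NAMPT LKO Fasting vs. WT Refed livers 2 of the 5 genes were called, both higher (background 4.65% higher).

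Acute phase genes summed to 16719 CPM in NAMPT LKO Fasting replicate 3 and to 5190 to 7435 CPM in the other 9 libraries, with Saa1 at 3276 CPM against 8.40 to 45.5 CPM. That library had the lowest Nfe2l2 (54.2 CPM), Nqo1 (4.65 CPM), Txnrd1 (108 CPM) and Srxn1 (46.6 CPM) of the 10 libraries. Srxn1 was nearly as low in NAMPT LKO Fasting replicate 5 (46.9 CPM). For Keap1, Gclc, Gclm, Hmox1, G6pdx and Pgd another library was lowest. G6pdx in replicate 3 (5.32 CPM) was the highest of the NAMPT LKO group. The part of the acute phase response in these values was not tested.

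Osgin1, a further target of NRF2 in the detoxification list that was picked after its values were seen, was at 145 and 181 CPM in WT Refed livers, at 49.8, 58.0 and 98.9 CPM in WT Fasting livers and at 112, 85.5, 113, 129 and 24.4 CPM in NAMPT LKO Fasting livers. Both refed livers were above all fasted ones. Of all genes, 25.1% lay wholly lower in WT Fasting than in WT Refed livers, and 17.8% in NAMPT LKO Fasting than in WT Refed livers. The log2 fold change of Osgin1 was -1.24 (edgeR, SE 0.52, adjusted p = 0.184) in the first comparison and -0.81 (SE 0.46, adjusted p = 0.303) in the second.

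As a description over the 10 libraries, the tested gene outside the list whose log2 CPM followed each member most closely was Spats2 for Nfe2l2, Asb13 for Keap1, Cops5 for Nqo1, Gm15417 for Gclc, Gm2093 for Gclm, Mxd1 for Hmox1, Timm8b for Txnrd1, Rps4l for Srxn1, St6galnac4 for G6pdx and Mark2 for Pgd. They were picked by Pearson correlation as the closest of all genes tested whose mean was 1 CPM or more, over libraries that share groups and depth. Not all held by rank. Mxd1 with Hmox1 had a Pearson r of 0.92 and a Spearman rho of 0.44, and Cops5 with Nqo1 had 0.88 and 0.56. For the other pairs rho was 0.87 to 0.99.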
